A study of Mus musculus with 12 samples.

Results

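The T-type calcium channel genes *Cacna1g*, *Cacna1h* and *Cacna1i*, the HCN channel genes *Hcn2*, *Hcn3* and *Hcn4*, and *Pex5l* were followed in the dorsolateral geniculate nucleus (dLGN), the thalamic relay of vision, of newborn *Sox2* and *Nr2f1* thalamic mutants. They were taken by gene symbol, and all 7 were found among the 24480 genes of each count table. RNA-seq was performed on 12 libraries in 4 groups of 3, each library being a pool of dLGNs from 3 animals of one genotype at P0. *Sox2* mutants were Sox2flox/flox;Ror-alphaCre, and their control littermates were Sox2flox/flox or Sox2flox/+ with no Cre. *Nr2f1* mutants were Nr2f1 flox/flox;Ror-alphaCre. For the *Nr2f1* controls the label names the mutant genotype together with "no Cre", whereas the study's methods give littermates carrying 1 or 2 floxed alleles of *Nr2f1* and no Cre. RORalpha-Cre deletes in thalamic cells, so other cells of the dissected tissue keep the gene, and the floxed allele is also carried by the controls of each line. Libraries are named here as control 1, 2 and 3 and mutant 1, 3 and 4 in the *Sox2* line, and as control B, D and E and mutant A, B and C in the *Nr2f1* line.

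Thalamic relay neurons fire either single spikes or bursts. T-type channels are low-threshold calcium channels that open near the resting potential and drive the burst, and *Cacna1g* (Cav3.1) is the best known of them in relay neurons, whereas *Cacna1h* (Cav3.2) and *Cacna1i* (Cav3.3) are known from the neighbouring reticular nucleus. HCN channels open on hyperpolarization, bind cAMP and carry the current that brings the membrane back toward threshold, with *Hcn2* and *Hcn4* its best known thalamic subunits. *Pex5l* encodes TRIP8b, an accessory subunit that sets HCN trafficking and the response of the channel to cAMP. These are background facts, and only transcript levels were measured here.

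In GRCm38 (RefSeq), *Cacna1g* lies at chr11:94408391-94474400 on the minus strand, *Cacna1h* at chr17:25374285-25436334 (minus), *Cacna1i* at chr15:80287238-80398292 (plus), *Hcn2* at chr10:79716634-79736108 (plus), *Hcn3* at chr3:89146775-89160284 (minus), *Hcn4* at chr9:58822949-58863175 (plus) and *Pex5l* at chr3:32947926-33143302 (minus). Exons of *Cacna1h* overlap those of *Tpsg1* on the other strand over 158 bases, exons of *Hcn3* overlap *Pklr* over 711 bases, and exons of *Pex5l* overlap the antisense genes *Gm37459* over 340 bases and *4930419G24Rik* over 24 bases. Whether counting used strand is not given in the sources used here, so that reads from these stretches cannot be told apart. The 250 bases before the RefSeq start site (build GRCm38.p6) are shown for 3 of the 7 genes, *Cacna1i* at chr15:80286988-80287237, *Hcn2* at chr10:79716384-79716633 and *Hcn4* at chr9:58822699-58822948, all on the plus strand and written 5′ to 3′. *Cacna1g*, *Cacna1h*, *Hcn3* and *Pex5l* had no entry. The windows are shown because the deleted factors bind DNA, and capitals mark the letters ACAAAG (core of SOX sites) or AGGTCA (half-site of nuclear receptors such as NR2F1), searched on both strands.
Cacna1i: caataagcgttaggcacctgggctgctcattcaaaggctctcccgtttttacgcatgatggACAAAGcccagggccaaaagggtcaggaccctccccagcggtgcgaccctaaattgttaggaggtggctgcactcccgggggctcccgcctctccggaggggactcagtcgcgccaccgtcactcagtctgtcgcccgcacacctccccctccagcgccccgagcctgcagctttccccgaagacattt
Hcn2: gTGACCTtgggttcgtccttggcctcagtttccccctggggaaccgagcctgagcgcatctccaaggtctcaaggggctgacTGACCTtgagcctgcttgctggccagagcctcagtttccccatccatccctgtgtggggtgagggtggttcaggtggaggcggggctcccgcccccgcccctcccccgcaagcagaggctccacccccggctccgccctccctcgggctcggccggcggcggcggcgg
Hcn4: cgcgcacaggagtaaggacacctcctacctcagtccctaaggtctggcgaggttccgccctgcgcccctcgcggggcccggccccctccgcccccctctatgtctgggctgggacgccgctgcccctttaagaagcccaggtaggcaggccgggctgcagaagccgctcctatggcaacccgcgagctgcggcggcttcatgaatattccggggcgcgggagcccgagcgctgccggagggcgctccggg
The *Cacna1i* window held ACAAAG once, 189 to 184 bases before the start. In the *Hcn2* window TGACCT, the reverse complement of AGGTCA, stood at 249 to 244 and at 168 to 163 bases before the start. Neither motif was in these letters for *Hcn4*. Of 32851 mouse windows of this length, 16.462% held ACAAAG or its reverse complement and 14.024% held AGGTCA or its reverse complement, so the matches describe these letters and were not tested as sites. The GC content was 62.4% for *Cacna1i*, 70.4% for *Hcn2* and 71.2% for *Hcn4*.

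Total counts per library lay between 39293465 and 50095344. *Sox2* was at 37.8% of control in *Sox2* mutants (log2 fold change -1.40, edgeR FDR = 4.83e-05) and *Nr2f1* at 33.6% of control in *Nr2f1* mutants (-1.57, edgeR FDR = 0.000348). In *Nr2f1* mutants *Sox2* was also called lower, at 68.1% of control (-0.55, edgeR FDR = 0.00635), a call kept in 9 of 15 alternative fits. *Nr2f1* was at 76.3% of control in *Sox2* mutants, where it was not called and the groups overlapped (-0.39, edgeR FDR = 0.0559). *Rora* is the gene into which Cre was inserted, so its locus is altered in the mutants of both lines and not in their controls. *Rora* was at 25.6% of control in *Sox2* mutants (-1.96, edgeR FDR = 2.07e-05), whereas its level in *Nr2f1* mutants was not called different (-0.25, edgeR FDR = 0.204). A part of the insertion in the *Sox2* line, which the study's authors think unlikely, was not tested. Of 11 glutamatergic thalamic markers, none of which was at 0 in all libraries, 3 were called lower and 3 higher in *Sox2* mutants and 0 lower and 1 higher in *Nr2f1* mutants. In *Sox2* mutants *Slc17a6*, the vesicular glutamate transporter VGLUT2, fell (log2 fold change -0.96, edgeR FDR = 0.000336) and *Gbx2*, a thalamic transcription factor, rose (1.67, edgeR FDR = 0.000206). Other cell types moved with genotype in the *Sox2* line. In CPM, the counts per library scaled to a common total by the TMM method of edgeR, the summed level of 8 astrocyte markers was 1215 to 1367 CPM in controls and 1825 to 2038 CPM in mutants, with 5 of the 8 called higher, and that of 7 microglial markers was 130 to 143 CPM against 266 to 308 CPM, with 6 of the 7 called higher. The sum of 8 GABAergic markers was 386 to 439 CPM against 467 to 495 CPM, with 0 of the 8 called in edgeR, 7 with an unadjusted p below 0.05 and 4 called by DESeq2. General neuronal markers, 12 in number, summed to 8717 to 10257 CPM in *Sox2* controls and 8589 to 9135 CPM in *Sox2* mutants, which overlapped. Of these 12, 10 had a lower estimate, 2 were called lower in edgeR, 5 had an unadjusted p below 0.05 and 2 were called by DESeq2. Pallial and hippocampal markers, 7 in number, summed to 64.7 to 95.1 CPM in *Sox2* controls and 65.1 to 155 CPM in mutants. Of these, 6 had a higher and 1 a lower estimate. In the *Nr2f1* line they summed to 84.0 to 96.3 against 146 to 178 CPM, with 3 higher and 4 lower estimates. Midbrain-derived interneuron markers summed to 66.2 to 76.4 against 89.0 to 98.2 CPM in the *Sox2* line (1 called). In the *Nr2f1* line they summed to 63.2 to 72.1 against 73.6 to 119 CPM (0 called). In the *Nr2f1* line the astrocyte sum was 1002 to 1044 CPM against 1157 to 1264 CPM (1 of 8 called higher), and the microglial sum was 106 to 121 CPM against 131 to 162 CPM (0 of 7 called in edgeR, 5 with an unadjusted p below 0.05 and 3 called by DESeq2). In that line the sum of 12 general neuronal markers was 10140 to 10422 CPM against 9015 to 9879 CPM (0 of 12 called in edgeR, 6 with an unadjusted p below 0.05 and 2 called by DESeq2), and *Xist* ranged from 0.283 to 484 CPM in controls and from 506 to 1150 CPM in mutants, so that the sex of the pooled animals was not balanced between these groups. In the *Sox2* line *Xist* ranged from 0.189 to 579 CPM in controls and from 0.463 to 307 CPM in mutants. The summed male-specific genes there ranged from 33.6 to 114 CPM and from 54.3 to 110 CPM, so that sex varied between the pools of each *Sox2* group as well. The part of these cell types and of sex in the values that follow was not tested, except where a scaling or covariate is named.

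Of the 7 genes, *Pex5l* was lower in both mutants, *Cacna1h* was lower in *Sox2* mutants, and *Cacna1g* and *Cacna1i* were higher in *Nr2f1* mutants, whereas no HCN subunit was called in either line. Calls are at an FDR below 0.01 in edgeR's quasi-likelihood test over all genes tested. In *Sox2* mutants 2 of 7 genes were called, both lower, beside 8.08% of all 15602 genes tested (4.19% lower and 3.9% higher). The groups did not overlap for 3 of 7 (*Cacna1h*, *Hcn3* and *Pex5l*), beside 37.9% of all genes. In *Nr2f1* mutants 3 of 7 were called, 1 lower and 2 higher, beside 2.54% of all 15600 genes tested (1.32% lower and 1.22% higher), and the groups did not overlap for 4 of 7 (*Cacna1g*, *Cacna1i*, *Hcn4* and *Pex5l*), beside 28.6% of all genes. The median log2 fold change of the 7 genes was -0.18 in *Sox2* mutants, where that of all genes was 0.00, and -0.05 in *Nr2f1* mutants, where that of all genes was 0.01. Levels by library are drawn in the plot of normalized counts.

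**Figure D1:**
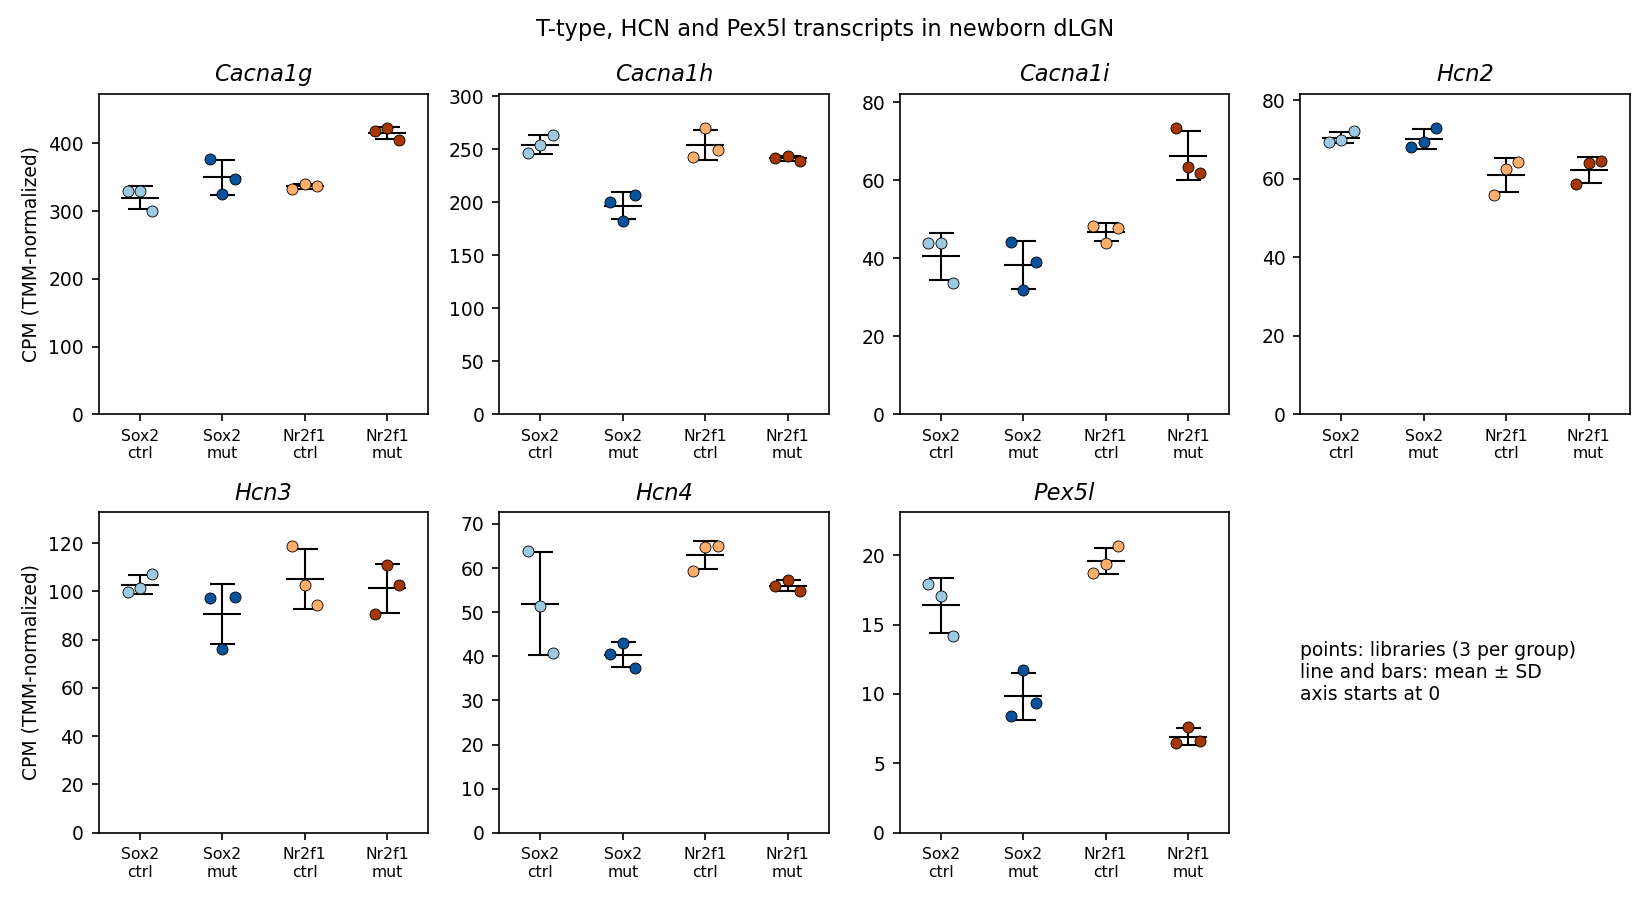
Level of each gene (CPM, TMM-normalized, axes from 0) in every library of the 4 groups, with the mean and SD of 3 libraries. *Pex5l* lay at 8.43 to 11.7 CPM in *Sox2* mutants and 6.5 to 7.61 CPM in *Nr2f1* mutants, below all 6 control libraries, and *Hcn2* overlapped its controls in both lines.

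*Pex5l*, the HCN accessory subunit, was the gene that changed most. Its level was 17.9, 17.1 and 14.2 CPM in *Sox2* controls 1, 2 and 3 and 8.43, 11.7 and 9.38 CPM in *Sox2* mutants 1, 3 and 4. In the *Nr2f1* line it was 18.7, 19.4 and 20.6 CPM in controls B, D and E and 6.50, 7.61 and 6.65 CPM in mutants A, B and C. Each mutant library lay below each control library of its line. The mean of 3 libraries was 16.4 ± 1.97 CPM in *Sox2* controls and 9.83 ± 1.68 CPM in mutants (SD), or 60.0% of control, which was a change of -0.74 ± 0.14 on the log2 scale (SE, edgeR FDR = 0.00731). In *Nr2f1* mutants the mean went from 19.6 ± 0.971 to 6.92 ± 0.601 CPM, or to 35.3% of control, which was a change of -1.50 ± 0.10 (log2, SE, edgeR FDR = 9.23e-05). The tissue was measured in bulk, and fewer cells of a type and less RNA per cell cannot be told apart. In *Nr2f1* mutants the call was kept in 15 of 15 alternative fits, with a log2 fold change of -1.57 to -1.37, including scaling to the neuronal markers (-1.37, FDR = 8.26e-05) and a covariate for male-specific genes (-1.44, FDR = 0.00226). In *Sox2* mutants it was kept in 10 of 16, with a log2 fold change of -0.88 to -0.59. There the FDR rose to 0.0285 when libraries were scaled to neuronal markers, to 0.0179 with the male-specific covariate, and to 0.0390, 0.0349, 0.0215 and 0.0389 without control 1, control 2, mutant 1 and mutant 4.

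Among the T-type genes, *Cacna1h* (Cav3.2) was the one called in *Sox2* mutants. Its level was 246, 254 and 263 CPM in *Sox2* controls 1, 2 and 3 and 201, 183 and 207 CPM in mutants 1, 3 and 4, so that the groups did not overlap. The mean fell from 254.5 ± 8.54 to 196.8 ± 12.7 CPM (77.3% of control), a log2 change of -0.37 ± 0.07 (SE, edgeR FDR = 0.00645). The direction was the same in 16 of 16 alternative fits and the call in 7. Among the fits without the call, the FDR was 0.118 under neuronal scaling (-0.24), 0.0173 with the male-specific covariate, 0.0117 under upper quartile normalization and 0.0164 to 0.0299 without control 1, control 2, mutant 1, mutant 3 or mutant 4. In the *Nr2f1* line the same gene was at 243, 270 and 250 CPM in controls B, D and E and at 242, 244 and 239 CPM in mutants A, B and C. These groups overlapped, and the log2 fold change of -0.07 had a 95% confidence interval of -0.19 to 0.04 (edgeR FDR = 0.426).

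*Cacna1g* (Cav3.1), the most abundant of the 7 per kb, was higher in *Nr2f1* mutants. It stood at 333, 340 and 338 CPM in controls B, D and E and at 418, 423 and 405 CPM in mutants A, B and C. All 3 mutants exceeded all 3 controls, and the mean rose from 336.7 ± 3.53 to 415.3 ± 8.88 CPM (123% of control), a log2 change of 0.30 ± 0.04 (SE, edgeR FDR = 0.00398). The call was kept in 10 of 15 alternative fits, in which the log2 fold change ran from 0.29 to 0.43 over all 15. The FDR was 0.0425 with the male-specific covariate (0.30) and 0.0174 to 0.0264 without control B, control D, control E or mutant A. In *Sox2* mutants the gene was at 377, 325 and 348 CPM against 330, 330 and 299.7 CPM in controls 1, 2 and 3. These groups overlapped, and the log2 fold change was 0.13 (95% confidence interval -0.04 to 0.30, edgeR FDR = 0.268).

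*Cacna1i* (Cav3.3) was also higher in *Nr2f1* mutants. Its level was 48.2, 43.9 and 47.8 CPM in controls B, D and E and 73.4, 63.4 and 61.8 CPM in mutants A, B and C. The groups did not overlap, and the mean rose from 46.6 ± 2.35 to 66.2 ± 6.28 CPM (142% of control), a log2 change of 0.51 ± 0.08 (SE, edgeR FDR = 0.00469). The highest level was in mutant A, in which male-specific genes were at 0 CPM, and without that library the log2 fold change was 0.43 (FDR = 0.0192). The call was kept in 9 of 15 alternative fits and the direction in 15. It was lost with the male-specific covariate (0.40, FDR = 0.0344), in one fit over the 12 libraries (0.51, FDR = 0.0210) and without control B, D or E (FDR = 0.0168 to 0.0234). Prethalamic and reticular markers, a neighbouring source of *Cacna1i*, summed to 31.9 to 37.7 CPM in *Nr2f1* controls and 36.8 to 51.6 CPM in mutants, with 0 of 8 called in edgeR or DESeq2 and 1 with an unadjusted p below 0.05. Their part in the result was not tested. In the *Sox2* line these markers summed to 26.9 to 44.0 CPM in controls and 53.8 to 104 CPM in mutants (0 of 8 called in edgeR, 7 with an unadjusted p below 0.05 and 3 called by DESeq2), whereas *Cacna1i* was at 43.9, 43.9 and 33.6 CPM in controls 1, 2 and 3 and at 44.1, 31.8 and 39.1 CPM in mutants 1, 3 and 4. The *Sox2* groups overlapped, with a log2 fold change of -0.08 (95% confidence interval -0.38 to 0.23, edgeR FDR = 0.723).

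**Figure D2:**
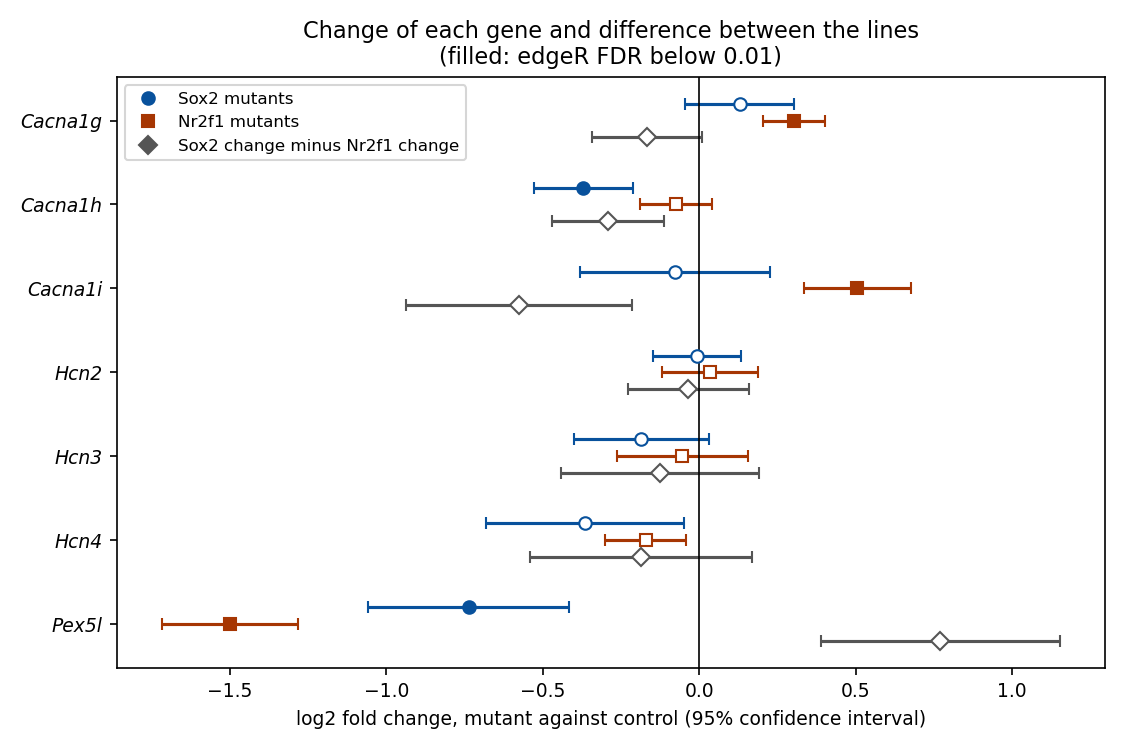
Log2 fold change of each gene (points) with its 95% confidence interval (bars) in *Sox2* mutants, in *Nr2f1* mutants, and for the *Sox2* change minus the *Nr2f1* change. Filled points have an edgeR FDR below 0.01, which were *Cacna1h* and *Pex5l* in *Sox2* mutants, *Cacna1g*, *Cacna1i* and *Pex5l* in *Nr2f1* mutants, and none for the difference.

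The HCN subunits had smaller estimated changes than their accessory subunit, and none of the 3 was called by edgeR or DESeq2 in either line. *Hcn2* was at 69.4, 69.9 and 72.0 CPM in *Sox2* controls and 67.9, 69.2 and 72.9 CPM in *Sox2* mutants, and at 55.9, 62.5 and 64.1 CPM in *Nr2f1* controls and 58.5, 64.0 and 64.5 CPM in *Nr2f1* mutants. Both pairs of groups overlapped. The 95% confidence interval of its log2 fold change was -0.15 to 0.13 in *Sox2* mutants (edgeR FDR = 0.943) and -0.12 to 0.19 in *Nr2f1* mutants (edgeR FDR = 0.805). *Hcn3*, the most abundant HCN subunit of the 3 per kb, was at 99.8, 102 and 107 CPM in *Sox2* controls and 97.4, 76.2 and 97.9 CPM in *Sox2* mutants. These groups did not overlap, but the change was within the error of the fit, at -0.18 (95% confidence interval -0.40 to 0.03, edgeR FDR = 0.203). In *Nr2f1* mutants *Hcn3* overlapped its controls, with 90.6 to 111 CPM against 94.2 to 119 CPM (-0.05, edgeR FDR = 0.775).

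*Hcn4*, the subunit with the slowest opening, had the lowest p-values of the HCN genes, at an unadjusted 0.0281 in *Sox2* and 0.0147 in *Nr2f1* mutants by edgeR. In the *Sox2* line it was at 63.9, 51.4 and 40.6 CPM in controls 1, 2 and 3 and at 40.5, 43.1 and 37.4 CPM in mutants 1, 3 and 4. The controls were widely spread, and control 3 lay within the mutant range. The log2 fold change was -0.37 (95% confidence interval -0.68 to -0.05, edgeR FDR = 0.0979). Without control 3 it was -0.50 (FDR = 0.00692) and without control 1 it was -0.19 (FDR = 0.327), so that single control libraries decided the value. In the *Nr2f1* line *Hcn4* was at 59.4, 64.8 and 64.9 CPM in controls B, D and E and at 55.8, 57.3 and 54.8 CPM in mutants A, B and C. Here the groups did not overlap, at a log2 change of -0.17 ± 0.06 (SE, edgeR FDR = 0.104).

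Levels were compared between genes as CPM per kb of RefSeq transcript. In *Sox2* controls the order was *Cacna1g* (39.6 ± 2.16 CPM per kb), *Cacna1h* (31.0 ± 1.04), *Hcn3* (25.7 ± 0.954), *Hcn2* (22.0 ± 0.439), *Hcn4* (8.49 ± 1.90), *Pex5l* (6.03 ± 0.725) and *Cacna1i* (4.14 ± 0.611), each mean ± SD with n = 3. No neighbours in this order overlapped between libraries. The order was the same in *Nr2f1* controls, from 41.7 ± 0.437 CPM per kb for *Cacna1g* to 4.77 ± 0.240 for *Cacna1i*, and there *Cacna1h* (30.9 ± 1.74) and *Hcn3* (26.3 ± 3.10) overlapped. The place of *Pex5l* depends on the transcript, since its 5 RefSeq transcripts run from 1187 to 3620 bases and give 4.53 to 13.8 CPM per kb in *Sox2* controls.

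In both lines the share of *Cacna1g* in the summed T-type level was higher, and that of *Cacna1h* lower, in every mutant library than in every control library, a description that no test here could call. *Cacna1g* held 53.0% ± 1.65 of the summed T-type level per kb in *Sox2* controls and 60.8% ± 1.13 in mutants, and 53.9% ± 0.815 and 58.7% ± 0.426 in the *Nr2f1* line. The share of *Cacna1h* went from 41.5% ± 2.34 to 33.7% ± 1.30 in *Sox2* mutants and from 40.0% ± 1.27 to 33.6% ± 0.370 in *Nr2f1* mutants. The share of *Cacna1i* was 5.53% ± 0.693 and 5.48% ± 0.505 in the *Sox2* line, which overlapped, and rose from 6.17% ± 0.453 to 7.72% ± 0.640 in *Nr2f1* mutants without overlap. Shares of one family are tied to each other by their sum. The summed T-type level per kb was 74.7 ± 1.87 in *Sox2* controls and 71.2 ± 5.04 in mutants, which overlapped, and 77.4 ± 1.90 and 87.6 ± 1.73 in the *Nr2f1* line, which did not. Among the HCN genes, the share of *Hcn2* was 39.2% ± 1.13 in *Sox2* controls and 42.9% ± 2.34 in mutants without overlap, and the other 5 HCN shares overlapped. With 3 libraries against 3 the exact two-sided permutation test cannot give a p below 0.1, which each share without overlap reached (adjusted p = 0.2 over the 12 shares), so no share could pass a threshold of 0.05. *Pex5l* amounted to 10.7% ± 1.22 of the summed level per kb of *Hcn2*, *Hcn3* and *Hcn4* in *Sox2* controls and 7.13% ± 1.64 in mutants, and to 12.9% ± 0.956 and 4.71% ± 0.225 in the *Nr2f1* line. These ratios did not overlap within a line.

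**Figure D3:**
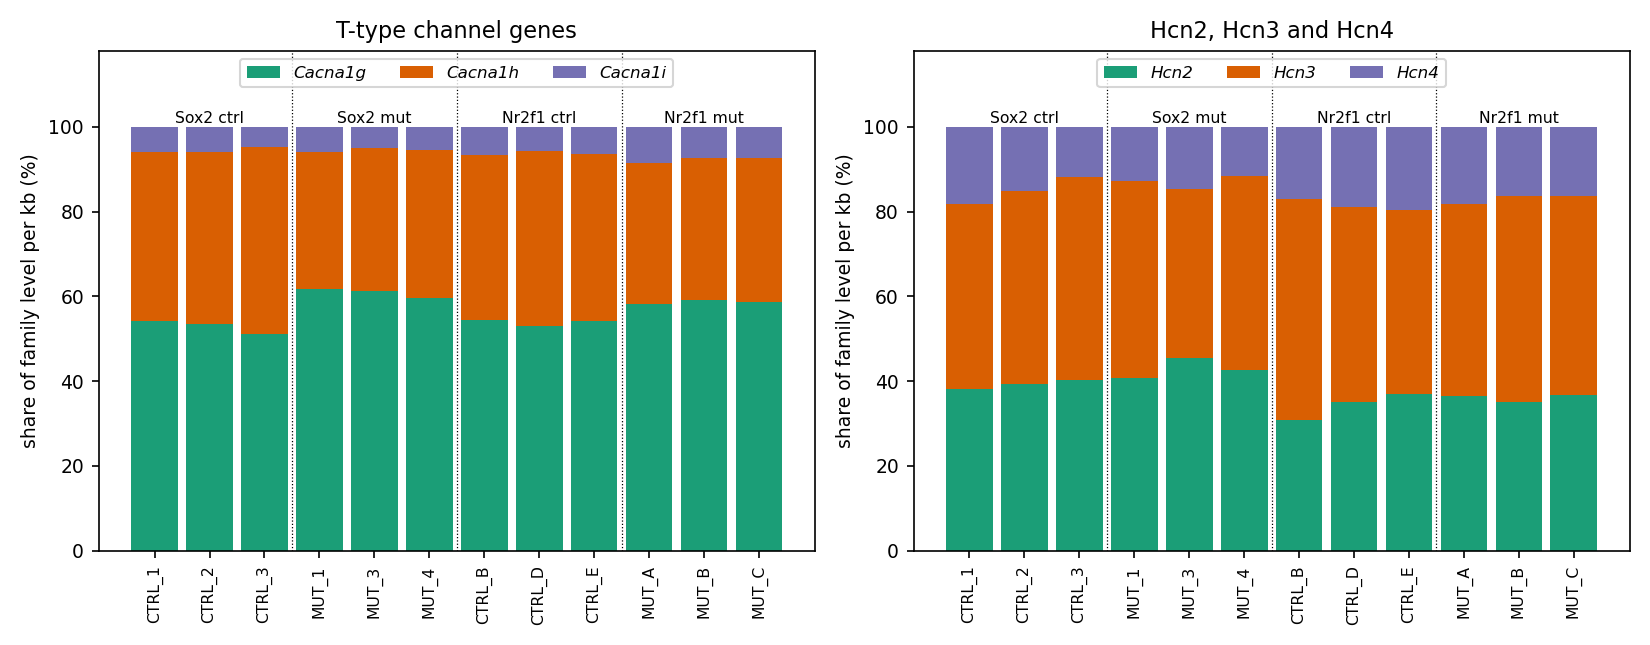
Share (%) of each gene in the summed level per kb of its channel family in each of the 12 libraries, with dotted lines between groups. *Cacna1g* held 51.1% to 54.4% of the T-type sum in the control libraries and 58.3% to 61.7% in the mutant libraries, whereas the HCN shares varied more between libraries of one group.

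A line-by-genotype interaction term, fitted over all 12 libraries, compared the change of each gene between the mutants, and 1.44% of 15989 genes were called (1.11% with the lower and 0.331% with the higher value in *Sox2* mutants). By this test 0 of the 7 genes were called in edgeR, 3 had an unadjusted p below 0.05, and DESeq2 and the likelihood ratio test of edgeR each called 1. That gene was *Pex5l*, for which the *Sox2* change minus the *Nr2f1* change was 0.77 on the log2 scale (95% confidence interval 0.39 to 1.15, edgeR FDR = 0.0289), with an FDR of 0.00168 in DESeq2. Its estimated fall was thus larger in *Nr2f1* mutants, at an edgeR FDR outside the threshold. The other 2 were *Cacna1i*, with a difference of -0.58 (95% confidence interval -0.94 to -0.22, edgeR FDR = 0.0849), and *Cacna1h*, with a difference of -0.29 (95% confidence interval -0.47 to -0.11, edgeR FDR = 0.0793). The calls of *Cacna1h* in one line and of *Cacna1g* and *Cacna1i* in the other are therefore not shown to differ between the mutants. For *Cacna1g*, *Hcn2*, *Hcn3* and *Hcn4* the differences were -0.17, -0.04, -0.13 and -0.19, with confidence intervals that included 0.

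Genes that act on these channels, on cAMP, or on other currents and signals of burst and tonic firing were taken from 5 lists. Of 9 regulators of T-type channels, such as the deubiquitinase *Usp5* and the auxiliary subunit *Cachd1*, 0 were called in either line by edgeR or DESeq2, 3 in *Sox2* and 4 in *Nr2f1* mutants had an unadjusted p below 0.05, and the median log2 fold change was -0.03 and 0.00. Of 9 HCN partners 0 were called in either line by edgeR, with medians of -0.08 and 0.01, whereas 5 in *Sox2* and 2 in *Nr2f1* mutants had an unadjusted p below 0.05, and DESeq2 called 1 and 0. Without *Sox2* control 3, the T-type regulator *Camk2d* and 2 HCN partners passed in *Sox2* mutants. The partners were *Lrmp* and *Mrvi1*, which encode an HCN4 regulator and its relative, at 1.16 (edgeR FDR = 0.01004) and 0.76 (edgeR FDR = 0.0549) with all libraries. Both were at low levels. *Lrmp* was at 0.828 to 1.28 CPM in *Sox2* controls and 2.02 to 2.52 CPM in mutants, and *Mrvi1* at 1.75 to 3.55 CPM and 4.12 to 4.34 CPM.

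Of 24 genes of cAMP synthesis and breakdown, which set the ligand of HCN channels, 3 fell and 1 rose in *Sox2* mutants, and 3 fell and 0 rose in *Nr2f1* mutants. Of all genes tested, 8.08% were called in *Sox2* mutants and 2.54% in *Nr2f1* mutants. DESeq2 called 6 of the 24 in *Sox2* and 9 in *Nr2f1* mutants. The adenylyl cyclase *Adcy9* fell in both (log2 fold change -0.62, edgeR FDR = 0.00168, and -0.54, edgeR FDR = 0.00142). The phosphodiesterase *Pde7b* went from 62.1 ± 5.29 to 24.8 ± 2.90 CPM in *Sox2* mutants (-1.33, edgeR FDR = 5.84e-05) and was at 68.7 ± 11.1 and 67.0 ± 11.1 CPM in *Nr2f1* controls and mutants. The cyclase *Adcy2* also fell and *Adcy7* rose in *Sox2* mutants (-0.63 and 0.51), and the cyclase *Adcy5* and the calmodulin-dependent phosphodiesterase *Pde1b* fell in *Nr2f1* mutants (-0.38 and -0.51).

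Of 19 genes of leak currents and of currents that follow a burst, 4 fell and 1 rose in *Sox2* mutants, and 1 fell and 2 rose in *Nr2f1* mutants. These stand beside 8.08% and 2.54% of all genes called in the 2 lines. DESeq2 called 6 of the 19 in *Sox2* and 5 in *Nr2f1* mutants. *Kcnd3*, an A-type potassium channel, fell in both, from 155 ± 16.2 to 89.3 ± 6.44 CPM in *Sox2* mutants (-0.80, edgeR FDR = 0.000375) and from 148.5 ± 4.93 to 80.0 ± 8.09 CPM in *Nr2f1* mutants (-0.89, edgeR FDR = 0.000185), whereas *Ryr2*, a calcium release channel, rose in both (0.65 and 0.45). *Kcnn1*, an SK channel opened by calcium, fell from 90.1 ± 12.9 to 32.0 ± 3.77 CPM in *Sox2* mutants (-1.49, edgeR FDR = 7.85e-05), together with the leak potassium channel *Kcnk1* (-0.71) and *Unc80* (-0.74), a subunit of the sodium leak channel. *Kcnd2*, another A-type channel, rose in *Nr2f1* mutants (0.37).

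Of 13 receptors and Gq signalling genes that shift relay neurons between burst and tonic firing, 2 fell in *Sox2* mutants and 2 rose in *Nr2f1* mutants. The shares of all genes called were 8.08% and 2.54%. DESeq2 called 6 of the 13 in *Sox2* and 3 in *Nr2f1* mutants. In *Sox2* mutants the muscarinic receptor *Chrm3* fell from 25.6 ± 3.80 to 8.93 ± 1.33 CPM (-1.52, edgeR FDR = 0.000177) and the phospholipase *Plcb4* from 49.3 ± 5.40 to 28.7 ± 0.437 CPM (-0.78, edgeR FDR = 0.000444). In *Nr2f1* mutants *Chrm3* was at -1.09, just outside the threshold (edgeR FDR = 0.0102), and was called in 10 of 15 alternative fits, among them those without mutant B (FDR = 0.00204) or mutant C (FDR = 0.00635). There the muscarinic receptor *Chrm2* and the phospholipase *Plcb1* rose (1.05 and 0.74). The calls of *Pde7b*, *Kcnd3*, *Kcnn1*, *Unc80*, *Chrm3* and *Plcb4* in *Sox2* mutants and of *Kcnd3* in *Nr2f1* mutants were kept without any 1 library. In *Sox2* mutants those of *Adcy2*, *Adcy7*, *Adcy9*, *Kcnk1* and *Ryr2* were lost without control 2 (FDR = 0.0279, 0.0249, 0.0102, 0.0269 and 0.0238). Each of these calls was also lost without at least 1 mutant library and, for some of the genes, without control 1. In *Nr2f1* mutants those of *Adcy5*, *Adcy9*, *Chrm2*, *Kcnd2*, *Pde1b*, *Plcb1* and *Ryr2* were lost without mutant A (FDR = 0.0164, 0.0115, 0.0294, 0.0347, 0.0367, 0.0156 and 0.0422). Each of these was also lost without at least 1 control library and, for some of the genes, without mutant C.

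**Figure D4:**
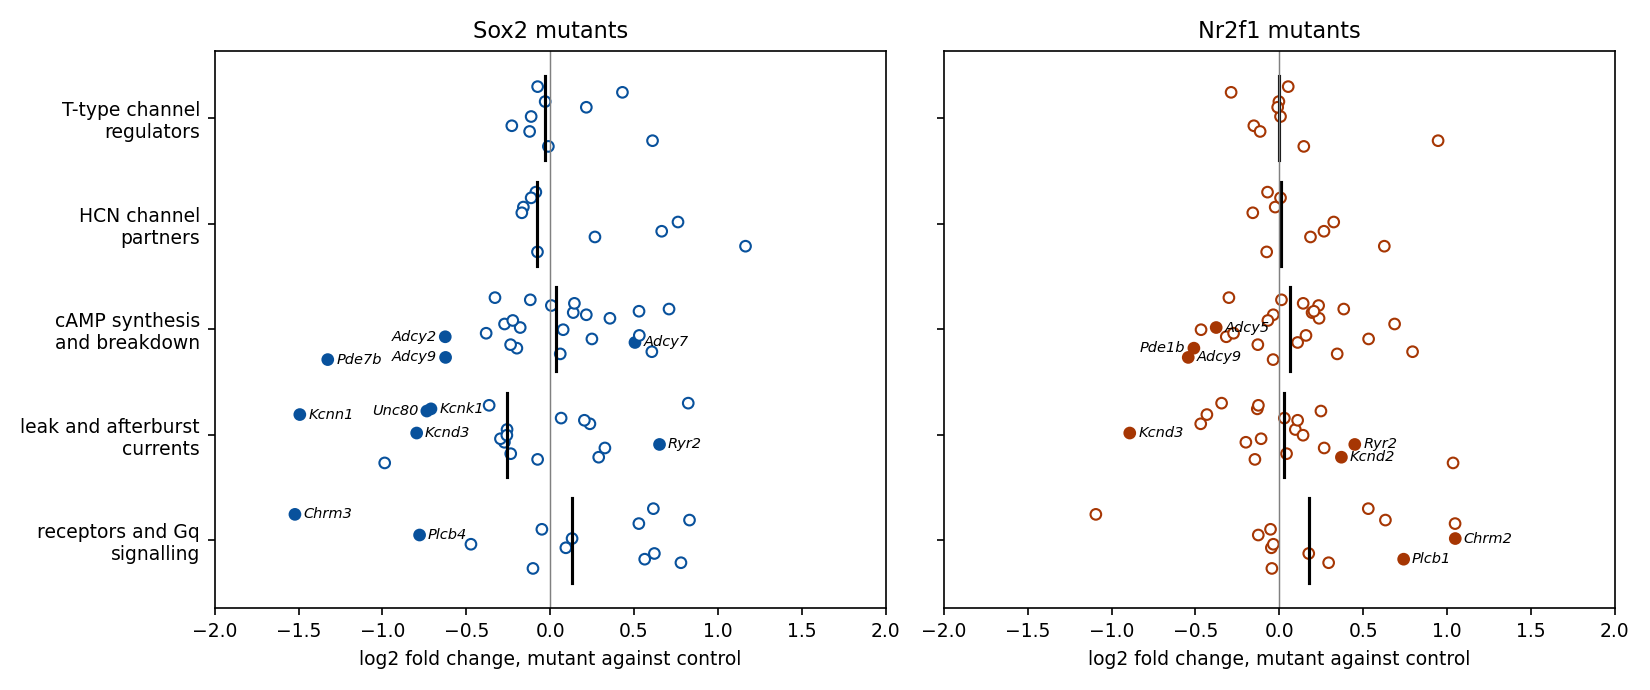
Log2 fold change of each gene of the 5 lists (points, spread vertically for legibility) in *Sox2* mutants and in *Nr2f1* mutants, with the median of each list as a vertical bar and genes with an edgeR FDR below 0.01 filled and named. The first 2 lists hold no filled point, and *Kcnd3* is filled at -0.80 and -0.89.

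Over the 12 libraries, the log2 levels most like those of *Pex5l* belonged to *Ppp2r5d* (Pearson r = 0.983), *Epha7* (0.976) and *Tmem132d* (0.970), among 15396 other genes tested in both lines. For *Cacna1g* they were *Atg9b* (0.968), *Phf24* and *Dbndd1*, for *Cacna1h* *Mllt1* (0.961), *Abhd8* and *Smyd2*, and for *Cacna1i* *Camk2a* (0.971), *Srgap3* and *Ehbp1l1*. For *Hcn2* they were *Rad17* (0.920), *Gm5617* and *Nudcd2*, for *Hcn3* *Tagln3* (0.953), *Plxna3* and *2810002D19Rik*, and for *Hcn4* *Dync1h1* (0.980), *Smg8* and *Rnf145*. These are the highest of many values over libraries that share groups and lines, and they are given as a description.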

How the data were processed

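RNA-seq was performed on pooled P0 dLGNs in 12 libraries. As the study's methods state, libraries were prepared with the Nugen Universal+ mRNA-seq kit and sequenced as paired reads, and the authors aligned reads with STAR to the RefSeq mouse transcriptome and estimated expression with RSEM; the submitters' notes name mm10, and tool versions are not given in the sources used here. The authors deposited expected counts by gene symbol, 1 table per line and not normalized, of which 7.77% were not whole. They were rounded before testing. Columns were assigned to groups by name, and 0 columns were left out.

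Genes were filtered with filterByExpr (minimum count 10, minimum total 15), scaled by TMM and tested with the quasi-likelihood test of edgeR 4.0.16 in R 4.3.3, mutants against the controls of their line, with Benjamini-Hochberg FDR below 0.01 over all genes tested. Differences between mutants were the interaction in one fit. Levels are CPM after TMM, mean ± SD. Pools are separate animals, and p-values measure the spread between pools. The lowest count of any of the 7 genes in a library was 259. Alternatives were no filter, at least 10 counts everywhere, RLE and upper quartile scaling, scaling to neuronal markers, DESeq2 1.42.0, the likelihood ratio test, FDR below 0.05, a male-specific covariate, one fit over all libraries, a replicate block and leaving out each library. Tests were checked on simulated counts. Of 100 genes changed 1.5-fold, 48% were recovered in the *Sox2* comparison, 45% in the *Nr2f1* comparison and 16% for the difference. For 2-fold changes these values were 71%, 69% and 63%, so that changes of this size can be missed. In the same simulations, genes that had not been changed were also called. These false calls numbered 6 in the *Sox2* comparison, 1 in the *Nr2f1* comparison and 2 for the difference.

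The 7 genes and all lists were chosen with earlier results of these data known. Named besides them are the targeted genes and *Rora*, up to 4 called genes with the smallest p per list and line, the 3 genes most like each of the 7, and cell type markers. Some genes that meet these rules are not reported here.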

Additional observations from a re-analysis of the deposited data

Results flagged for a closer look

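The change in *Sox2* mutants differed from that in *Nr2f1* mutants by the interaction test of edgeR (FDR below 0.01) for 3 genes of the pathway lists. The *Sox2* change minus the *Nr2f1* change on the log2 scale was -1.28 for *Pde7b* (FDR = 0.00168), -0.98 for *Unc80* (FDR = 0.000459) and -0.65 for *Plcb4* (FDR = 0.00715). The difference for *Unc80* was called in 20 of 20 alternative fits, for *Pde7b* in 19 and for *Plcb4* in 9. *Plcb4* lost its call when most single libraries were left out, with an FDR of 0.0164 without *Nr2f1* control E and of 0.0338 without *Nr2f1* control D. The targeted genes and *Rora* differed likewise, *Sox2* by -0.84, *Nr2f1* by 1.19 and *Rora* by -1.70. None of the 7 channel genes passed this test.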

How the results depend on the processing

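In *Sox2* mutants 1261 genes became 2450 with DESeq2, 2351 with the likelihood ratio test, 3095 at an FDR below 0.05, 2075 in one fit over the 12 libraries and 494 to 2161 when each library was left out, and in *Nr2f1* mutants 396 became 1108, 1089, 1154 (FDR below 0.05), 84 with the male-specific covariate and 133 to 868 (leaving out). For the difference 231 became 540, 496, 538, 117 and 133 to 308. Of the 7 genes, 2 called in *Sox2* mutants became 1 under upper quartile normalization, 0 under neuronal scaling, 0 with the male-specific covariate and 0 to 3 when a library was left out, 3 in *Nr2f1* mutants became 1 with the covariate and 1 to 3, and 0 for the difference became 1 with DESeq2, the likelihood ratio test or an FDR below 0.05. The cause was not tested. Upper quartile scaling moved the *Sox2* calls from 653 lower and 608 higher to 565 and 749, and neuronal scaling moved the median of all genes by 0.135 and 0.146 in the 2 lines. With the replicate number as a block, possible in the *Sox2* line only, where 2 numbers are shared (correlations 0.178 and 0.137), 1611 genes and 1 of the 7 were called (*Pex5l*, FDR = 0.00139; *Cacna1h*, FDR = 0.0164). No change that was called reversed. Changes not called turned sign under neuronal scaling for *Cacna1i* (0.065) and *Hcn2* (0.13) in *Sox2* mutants and *Cacna1h* (0.058), *Hcn3* (0.077), *Pde7b* (0.094) and *Plcb4* (0.0049) in *Nr2f1* mutants, under upper quartile scaling for *Hcn2* (0.036, *Sox2* mutants), and with the covariate for *Hcn2* (0.0045, *Sox2* mutants) and *Hcn3* (0.022, *Nr2f1* mutants). Leaving out a library gave ranges across 0 for *Cacna1i* (-0.19 to 0.040), *Hcn2* (-0.038 to 0.021) and *Chrm2* (-0.0086 to 0.23) in *Sox2* mutants, for *Hcn2* (-0.024 to 0.078), *Hcn3* (-0.13 to 0.040) and *Pde7b* (-0.16 to 0.087) in *Nr2f1* mutants and for *Hcn2* (-0.074 to 0.034) and *Adcy9* (-0.14 to 0.0017) in the difference.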
